A study of Caenorhabditis elegans with 2 samples.

Results

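The genes of the transcription machinery of Caenorhabditis elegans were examined for binding of LIN-13, a zinc-finger chromatin protein of the synMuv B class, which is named for its part in holding back vulval fate. The set held every nuclear protein-coding gene whose name begins with rpb-, rpoa-, rpac-, rpc-, mdt- or taf- and goes on with a number, together with ama-1 and tbp-1, as named in Ensembl WBcel235. These were 60 of 19973 genes: 12 for subunits of RNA polymerase II, 10 for subunits of RNA polymerases I and III, 20 for Mediator and 18 for TFIID. The rule uses gene names and no measured value, but the set was chosen with earlier results of these data known.

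The material was chromatin immunoprecipitation followed by sequencing (ChIP-seq) from whole L2 larvae, of pooled sexes, from strain OP49. That strain is described as unc119(ed3) with the transgene wgIs49, which carries lin-13 fused to TY1, EGFP and FLAG tags beside an unc119 marker. There was 1 group of 2 biological replicates and no second condition. The tagged protein came from a transgene, and the labels do not say whether the endogenous lin-13 gene was intact. The labels also do not say which cells of the larva expressed it, and peak lists hold no RNA levels against which the whole-organism label could be checked.

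Eukaryotic nuclear genes are read by separate polymerases. RNA polymerase I makes the large ribosomal RNA precursor, RNA polymerase II makes messenger RNA, and RNA polymerase III makes transfer RNA and 5S ribosomal RNA. Some subunits are common to all of them and some to polymerases I and III alone. TFIID, built from the TATA-binding protein (TBP) and its associated factors (TAFs), recognises core promoters of polymerase II, and Mediator carries signals from DNA-bound activators to that polymerase. In C. elegans many genes are transcribed as operons, in which a downstream gene follows its upstream neighbour closely on the same strand and its transcript receives a spliced leader.

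The deposited data are lists of peaks. The pooled list and each replicate list held 30000 entries, and the authors' thresholded list held 3040 peaks, which were the 3040 strongest of the pooled list. Entries were ranked by the deposited signal, with rank 1 the strongest, and no read counts were in the lists, so the depth behind each rank is unknown. A gene was counted as having a promoter peak when a thresholded summit lay between 1000 bp upstream and 200 bp downstream of its outermost annotated start. In whole larvae, binding in fewer cells and weaker binding per cell cannot be told apart.

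Of the 60 genes, 21 (35.0%) had a thresholded promoter peak, against 2312 of all 19973 protein-coding genes (11.6%). A further 16 had only an entry of the pooled list that fell below the threshold, and 23 had no entry in the window. Counting any pooled entry gave 37 genes (61.7%), against 36.3% of all genes, and counting only the stronger 1520 thresholded peaks gave 13 (6.97% of all genes). By complex, a peak was found at 9 of 12 genes for polymerase II, 1 of 10 for polymerases I and III, 5 of 20 for Mediator and 6 of 18 for TFIID. The 12 polymerase II genes include 5 for subunits shared with polymerases I and III, of which 4 had a peak. Of the 7 particular to polymerase II, 5 had a peak. The shared subunits are not counted among the 10 genes for polymerases I and III. Among the stronger 1520 peaks the counts were 4 of 12 for polymerase II, 1 of 10 for polymerases I and III, 5 of 20 for Mediator and 3 of 18 for TFIID. The Mediator count also moved with the assignment of summits, from 2 with the nearest start only to 8 with the widest window used, which began 2000 bp before the start. The differences between complexes were not tested.

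**Figure D1:**
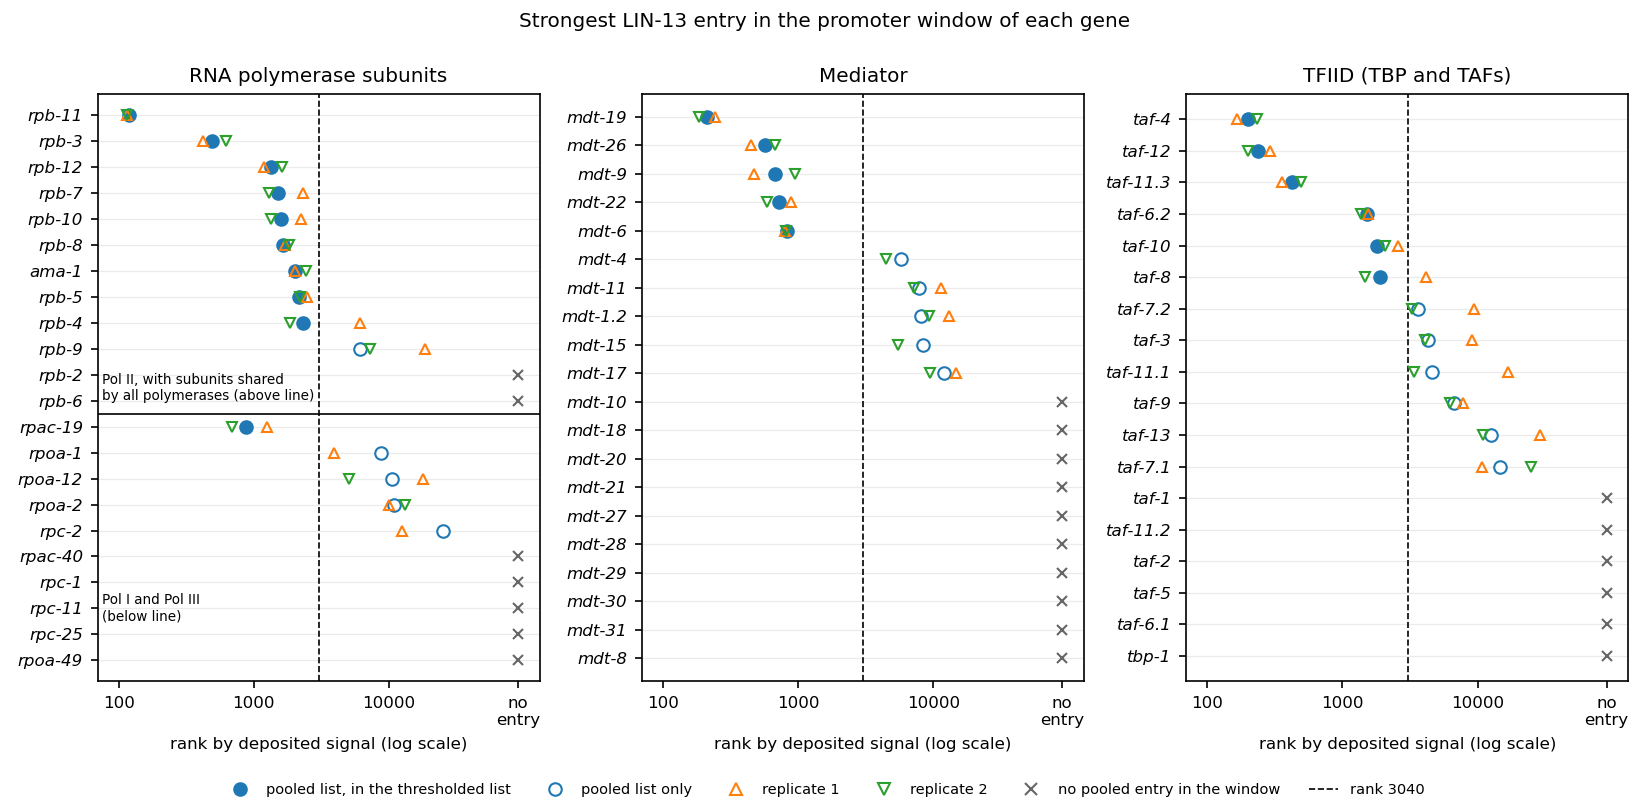
Rank by deposited signal (log axis, lower is stronger) of the strongest pooled entry in each gene's promoter window, with the strongest overlapping entry of replicate 1 (upward triangles) and replicate 2 (downward triangles); filled circles are in the thresholded list, open circles are not, and crosses mark genes with no pooled entry. Of 12 polymerase II genes 9 lie left of the dashed line at rank 3040, and of 10 polymerase I and III genes 1 does. The 12 include 5 genes for subunits shared with polymerases I and III, 4 of them left of the line.

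Within RNA polymerase II, the genes for the RPB3 and RPB11 subunits, whose products pair to form the platform on which the enzyme assembles, carried the strongest peaks. The rpb-11 peak (WBGene00012187; peak at II:14059870-14060077 on ce11) ranked 120 in the pooled list, and 115 in replicate 1 and again 115 in replicate 2. Its summits in the replicates were 1 bp apart. The rpb-3 peak (WBGene00007971; I:8728560-8728675) ranked 494, with 421 in replicate 1 and 626 in replicate 2. Its summit also lay in the window of the oppositely oriented gene pas-4, and the nearest start was not that of rpb-3. The small subunits RPB10 and RPB12 are shared with polymerases I and III and in yeast join the same platform. They were encoded by genes with weaker peaks. The rpb-12 peak (IV:9146952-9147301) ranked 1335, with 1196 in replicate 1 and 1628 in replicate 2. The rpb-10 peak (I:2063879-2064228) ranked 1586, with 2241 in replicate 1 and 1344 in replicate 2. Its summit was shared with the windows of Y37E3.1 and moag-4, and the nearest start was not that of rpb-10. All of these platform genes had a peak in their window, from rank 120 at rpb-11 to rank 1586 at rpb-10. So did 9 of the 12 polymerase II genes and 11.6% of all genes, and a difference of the platform genes from the other subunits was not tested. When each summit went only to its nearest start, rpb-11 and rpb-12 kept theirs and rpb-3 and rpb-10 did not. The rpb-11 summit was also in the window of W01G7.4, and that of rpb-12 in those of daf-10 and aly-2.

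The largest subunit, which holds much of the active site and the C-terminal repeat tail, is encoded by ama-1 (WBGene00000123; gene at IV:4248070-4258169, plus strand). Its peak at IV:4247321-4247670 ranked 2003, with 2008 in replicate 1 and 2438 in replicate 2, and its summit lay 574 bp upstream of the start. The gene for the second-largest subunit, rpb-2 (WBGene00016140; III:4939567-4944404), had no pooled entry in the window. The genes of the stalk, rpb-4 and rpb-7, both had a peak. The rpb-7 peak (I:3032736-3033085) ranked 1518, with 2313 in replicate 1 and 1288 in replicate 2. Its summit also lay in the window of the oppositely oriented gene Y54E10BR.2, and the nearest start was not that of rpb-7. The rpb-4 peak (II:7374177-7374526) ranked 2308, with 6071 in replicate 1 and 1845 in replicate 2, the largest difference between replicates among the 21. Among subunits used by all polymerases, rpb-8 had a peak (III:4917968-4918317) of rank 1646, with 1693 in replicate 1 and 1827 in replicate 2. Another, rpb-5, had a peak (I:6849928-6850277) of rank 2150, with 2483 in replicate 1 and 2193 in replicate 2. The gene for the common subunit RPB6, rpb-6, had no entry. For rpb-9, which encodes a subunit involved in fidelity and start site choice in yeast, the strongest entry ranked 6116, 18456 in replicate 1 and 7186 in replicate 2, below the threshold.

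The entries found at genes particular to polymerases I and III were all below the threshold. The polymerase I genes rpoa-1, rpoa-2, rpoa-12 and rpoa-49 and the polymerase III genes rpc-1, rpc-2, rpc-11 and rpc-25 had 0 thresholded promoter peaks among 8, a small set beside the 11.6% of all genes with one. A pooled entry was present at 4 of the 8, against 36.3% of all genes. The best of these, at rpoa-1 for the largest polymerase I subunit, ranked 8762. The entries of rpoa-12 and rpoa-2 ranked 10551 and 10869, and that of rpc-2, for the second-largest polymerase III subunit, ranked 24996. Of the pair of subunits that polymerases I and III share, rpac-19 (WBGene00010230; peak at III:9629817-9630166) had a peak of rank 870, with 1245 in replicate 1 and 688 in replicate 2. That summit also lay in the promoter window of tbg-1, which encodes gamma-tubulin. Its partner rpac-40 had no entry. When the window was widened to run from 2000 bp before the start to 500 bp after it, 26 of the 60 genes had a peak, against 14.9% of all genes. The 5 genes added were rpoa-49, the only addition among the 8 genes particular to polymerases I and III, and mdt-8, mdt-29, mdt-30 and taf-9.

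The bases under the summits of polymerase genes, of shared subunits and of Mediator genes are shown because a short word recurred in them. Each line is 81 bases centred on the summit, read 5′ to 3′ on the strand of the named gene from the RefSeq WBcel235 genome, and the capitals mark TTGCG or its reverse complement CGCAA. The rpb-11 window is II:14059938-14060018 (plus strand), that of rpb-12 is IV:9147087-9147167 (minus), of rpb-8 III:4918103-4918183 (minus), of rpb-4 II:7374312-7374392 (plus), of rpac-19 III:9629952-9630032 (minus), of mdt-22 II:10301127-10301207 (plus) and of mdt-6 V:7060486-7060566 (minus).
rpb-11: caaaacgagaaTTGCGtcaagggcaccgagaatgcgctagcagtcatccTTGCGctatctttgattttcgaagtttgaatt
rpb-12: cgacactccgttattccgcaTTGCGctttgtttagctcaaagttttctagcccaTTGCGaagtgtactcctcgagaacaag
rpb-8: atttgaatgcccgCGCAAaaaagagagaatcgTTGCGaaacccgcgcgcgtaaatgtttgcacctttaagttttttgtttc
rpb-4: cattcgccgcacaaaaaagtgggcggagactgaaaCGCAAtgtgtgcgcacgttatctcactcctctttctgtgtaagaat
rpac-19: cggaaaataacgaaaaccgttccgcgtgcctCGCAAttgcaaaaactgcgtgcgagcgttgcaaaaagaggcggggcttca
mdt-22: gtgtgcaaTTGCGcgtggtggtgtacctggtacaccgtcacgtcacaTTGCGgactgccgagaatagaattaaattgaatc
mdt-6: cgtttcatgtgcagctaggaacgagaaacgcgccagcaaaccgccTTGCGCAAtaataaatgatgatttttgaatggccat

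The word TTGCG, searched on both strands within 75 bp of the summit, was found at 15 of the 21 member peaks (71.4%). It was found at 700 of 1672 thresholded promoter summits in all (41.9%) and at 733 of 4506 summits of promoters whose entries were in the pooled list only (16.3%). Of all 19973 promoters, 17.1% held it in a stretch of equal length, 75 to 225 bp upstream of the start. Among the 16 members with only a pooled entry, rpoa-1 alone held it. The word was noticed in the members' own sequences, so its count there is a description, and a match is not a binding site. The members without it within 75 bp were ama-1, rpb-3, taf-6.2, taf-8, taf-10 and taf-11.3. GC content within 75 bp of the summit had a median of 39.7% at member peaks (34.4 to 64.2%) and 43% over all thresholded promoter summits.

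Mediator is divided into a head, a middle and a tail. The strongest Mediator peak belonged to mdt-19 (WBGene00007019; III:2597166-2597380), which ranked 211 in the pooled list, 244 in replicate 1 and 186 in replicate 2. Its summit lay 795 bp upstream of the mdt-19 start and closer to the start of apb-1, an oppositely oriented gene. Next came mdt-26 (WBGene00016115; II:5660977-5661326), with pooled rank 568 and a summit 29 bp upstream of the start, in the window of the divergent gene ift-43 as well. A weaker thresholded summit of rank 2470 lay 173 bp downstream of the mdt-26 start. Inside the mdt-26 gene, 718 bp from its start, a further peak (II:5661787-5661996) was stronger than either, with rank 285 in the pooled list, 204 in replicate 1 and 519 in replicate 2. The middle-module gene mdt-9 (IV:13386226-13386313) ranked 672, with 473 in replicate 1 and 946 in replicate 2. Its summit also lay in the windows of Y62E10A.20, Y62E10A.23 and lsm-3, and the nearest start was not that of mdt-9. Of the head-module genes, mdt-22 (II:10300992-10301341) ranked 728, with 887 in replicate 1 and 584 in replicate 2, and mdt-6 (V:7060351-7060700) ranked 832, with 799 in replicate 1 and 820 in replicate 2. For mdt-6 the summit lay 902 bp upstream, between Y57E12AL.6, the gene that directly precedes it, and the oppositely oriented Y57E12AL.1, and both of their starts were nearer.

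The other 15 Mediator genes had no thresholded promoter peak. Pooled entries below the threshold were present at mdt-4 (rank 5755), mdt-11 (7813), mdt-1.2 (8172), mdt-15 (8435) and mdt-17 (12047). No pooled entry was found at mdt-8, mdt-10, mdt-18, mdt-20, mdt-21, mdt-27, mdt-28, mdt-29, mdt-30 and mdt-31. By module the counts were 2 of 7 for the head (mdt-6, mdt-8, mdt-11, mdt-17, mdt-18, mdt-20 and mdt-22) and 1 of 5 for the middle (mdt-4, mdt-9, mdt-10, mdt-21 and mdt-31). The remaining genes, assigned here to neither, gave 2 of 8. A thresholded summit inside the gene but outside the promoter window was found at mdt-18 (rank 1360, 1284 bp downstream of the start) and at mdt-27 (rank 1379, 914 bp downstream). The mdt-18 summit lay in the window of another annotated transcript start of that gene. When any transcript start was allowed, 22 of the 60 genes had a peak, mdt-18 being the addition, against 12.4% of all genes.

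Among TFIID genes, the highest ranks belonged to the genes of a known heterodimer. TAF4 and TAF12 pair through histone folds. The taf-4 peak (WBGene00006385; I:382411-382601) ranked 199, with 167 in replicate 1 and 234 in replicate 2, and the taf-12 peak (WBGene00006396; III:11870113-11870269) ranked 239, with 293 in replicate 1 and 202 in replicate 2. The summits lay 337 bp and 913 bp upstream of their starts. The genes for TAF8 and TAF10, another histone-fold pair, also both had a peak. The taf-10 peak (V:4686702-4687051) ranked 1795, with 2558 in replicate 1 and 2067 in replicate 2. The taf-8 peak (II:9669006-9669355) ranked 1898, with 4133 in replicate 1 and 1467 in replicate 2. In other such pairs the partners were unlike. The taf-6.2 peak (IV:3694632-3694981) ranked 1530, with 1546 in replicate 1 and 1369 in replicate 2, and taf-9 had only an entry of rank 6741. The taf-11.3 peak (III:10505299-10505462) ranked 422, with 356 in replicate 1 and 492 in replicate 2, and taf-13 had only an entry of rank 12486. A thresholded peak of rank 2256 lay inside taf-9, 1495 bp downstream of its start.

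Among TAF paralogues, the TAF6 and TAF11 genes differed in having a peak and the TAF7 genes did not. Of the TAF6 genes, taf-6.2 had a peak and taf-6.1 had no entry. Of the TAF11 genes, taf-11.3 had a peak, taf-11.1 an entry of rank 4593 and taf-11.2 none. Of the TAF7 genes neither passed, with taf-7.2 at rank 3640 and taf-7.1 at rank 14731. The entry of taf-7.2 was the strongest of all 16 members below the threshold, followed by taf-3 at rank 4322. In replicate 2 these ranked 3295 and 4073, and in replicate 1 they ranked 9468 and 9072. No pooled entry was found in the window for tbp-1, the TBP gene, or for taf-1, taf-2 and taf-5, which encode the largest subunits of TFIID and a WD-repeat scaffold.

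A longer word was shared by promoters of TAF genes and rpb-12, and the windows that hold it are shown for comparison, with GGAGTACAC or its reverse complement GTGTACTCC in capitals. The taf-11.3 window is III:10505339-10505419 (minus strand), that of taf-8 II:9669141-9669221 (plus), that of rpb-12 IV:9147087-9147167 (minus), and that of taf-7.2, below the threshold, III:12673523-12673603 (minus).
taf-11.3: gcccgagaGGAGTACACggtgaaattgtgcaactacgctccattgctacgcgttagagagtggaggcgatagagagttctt
taf-8: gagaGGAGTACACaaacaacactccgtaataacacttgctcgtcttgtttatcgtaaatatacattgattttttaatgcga
rpb-12: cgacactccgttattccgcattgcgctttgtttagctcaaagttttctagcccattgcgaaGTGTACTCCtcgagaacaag
taf-7.2: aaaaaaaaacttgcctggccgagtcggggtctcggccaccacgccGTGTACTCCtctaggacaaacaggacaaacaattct

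Within 75 bp of the summit this word was found at 3 of the 21 member peaks (14.3%), against 42 of 1672 thresholded promoter summits (2.51%), 0.488% of promoter summits in the pooled list only and 0.371% of all promoters. It too was noticed in these sequences. Of 6 further words searched on both strands, GAGAGAG was found at 3 of 21 member peaks (mdt-19, taf-12 and taf-8; 13.6% of all thresholded promoter summits) and TTTCGCG at 2 (ama-1 and rpb-12; 7.54%). TTTGAA was found at 8 (31.8%), TATAAA at 3 (9.93%), AGATAA at 1 (6.40%) and CACGTG at 0 (4.61%).

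Most member summits lay just upstream of the start. At the 21 genes the strongest summit lay at a median of 143 bp upstream of the start, from 913 bp upstream to 27 bp downstream, against a median of 236 bp over the 2312 genes with a promoter peak. Of the 21, 14 lay within 300 bp upstream (66.7%, against 58.0% of the 2312). The only summit downstream of the start was that of rpb-7. The 4 summits over 500 bp upstream belonged to ama-1, mdt-19, mdt-6 and taf-12, and those 4 genes had no peak in a window from 500 bp before the start to 100 bp after it, where 17 of the 60 genes had one (9.30% of all genes). The strongest summit was also in the window of another gene for 15 of the 21 (71.4%, against 53.5%), and for 12 that gene, or 1 of several, had the opposite orientation (57.1%, against 50.5%). For 14 of the 21, the start nearest to the summit was the member's own, against 1656 of the 2312 genes, so this is not read as a trait of the members. Giving each summit only to its nearest start left 14 of the 60 genes with a peak (8.36% of all genes), without mdt-19, mdt-6, mdt-9, rpb-10, rpb-3, rpb-7 and taf-11.3.

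**Figure D2:**
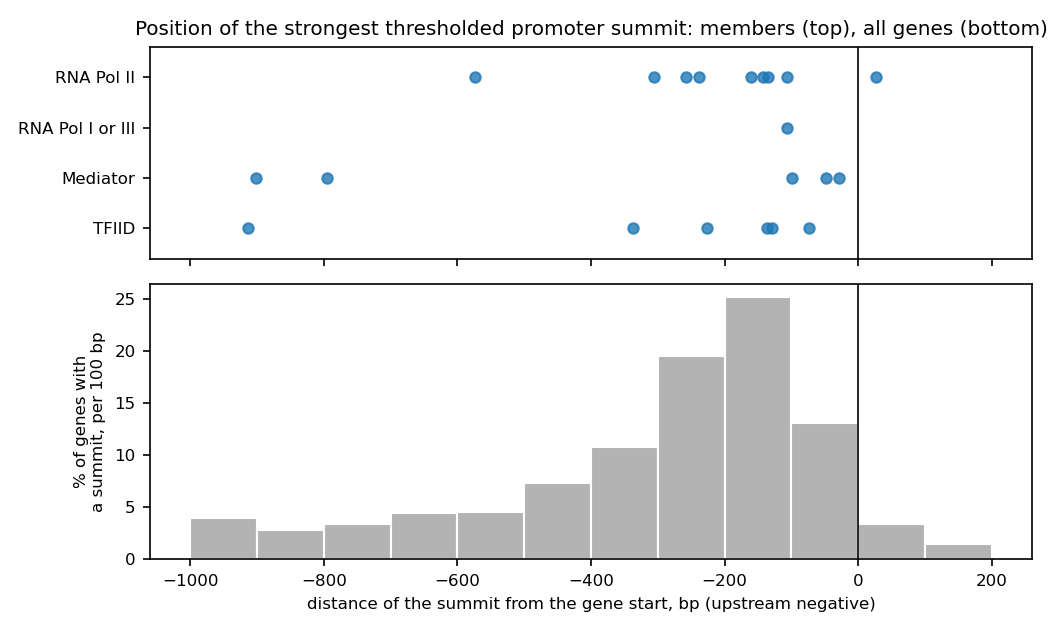
Distance of the strongest thresholded promoter summit from the annotated start, in bp with upstream negative, for each of the 21 member genes by complex (top, 1 point per gene) and as percent of the 2312 genes with a promoter peak per 100 bp (bottom, bars). Most member summits lie within 300 bp upstream, and 4 lie over 500 bp upstream.

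The share of members with a peak differed with the upstream neighbour, a difference that was not tested. Where the nearest protein-coding gene upstream was on the opposite strand and within 1000 bp, 8 of 10 members had a peak (80.0%, against 29.9% of all genes of that layout). They were rpb-3, rpb-4, rpb-10, rpb-12, mdt-26, taf-4, taf-6.2 and taf-11.3, and the exceptions were rpoa-2 and taf-7.2. In this layout a summit can lie in the windows of both neighbours and then counts for both. At rpb-3, rpb-10 and taf-11.3 the summit was nearer to another gene's start. A same-strand neighbour within 1000 bp preceded 29 members, of which 6 had a peak (20.7%, against 8.51% of all genes of that layout). Where the neighbour was on the same strand and ended within 200 bp, as in operons, 1 of 18 members had a peak (5.56%, against 6.58%), which was the mdt-6 peak shared with Y57E12AL.6. Of these 18 genes, 7 had a pooled entry below the threshold and 10 had none, and the gap to the neighbour ran from 38 to 184 bp with a median of 101 bp. The 200 bp limit was chosen after the gaps were seen. Such close same-strand neighbours preceded 30.0% of the members and 9.35% of all genes. With no neighbour within 1000 bp, 4 of 13 members had a peak (30.8%, against 7.40% of all genes of that layout). With a start inside another gene, 3 of 8 did (37.5%, against 7.48%).

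**Figure D3:**
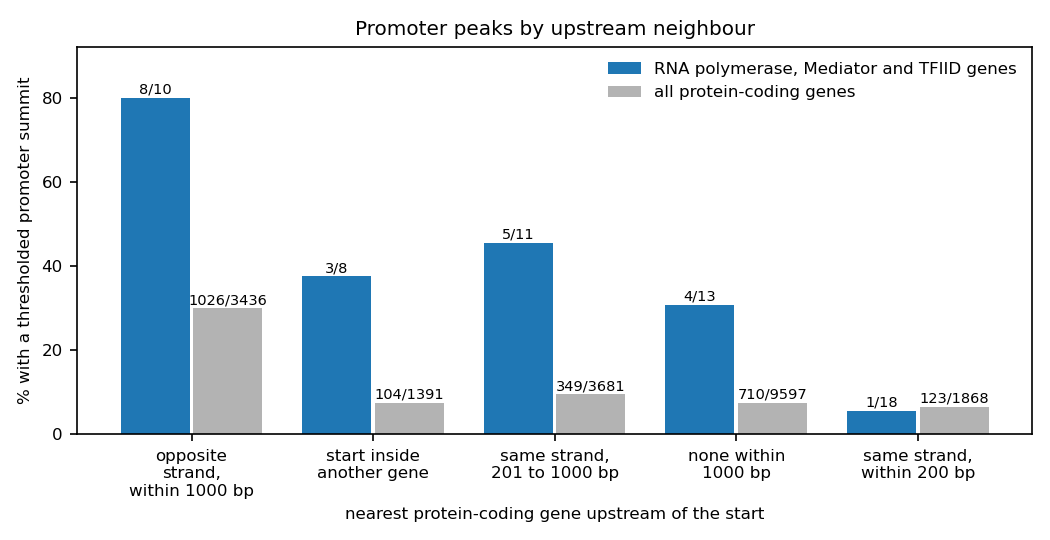
Percent of genes with a thresholded promoter summit (bars, from 0) by the nearest protein-coding gene upstream of the start, for the 60 RNA polymerase, Mediator and TFIID genes (left bar) and all protein-coding genes (right bar), with counts above the bars. The members stand at 80.0% with an oppositely oriented neighbour and at 5.56% behind a same-strand neighbour within 200 bp. A summit counts for every gene whose window holds it, also where another gene's start is nearer.

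Several of the genes without a peak named above were in this close class, and whether the layout bears on that was not tested. The close class held rpb-2 and rpb-9 of polymerase II, rpc-2, rpc-25 and rpac-40 of polymerases I and III, 9 Mediator genes, and tbp-1, taf-6.1, taf-9 and taf-13 of TFIID. Outside it, 20 of 42 members had a peak (47.6%), against 12.1% of all genes outside it. By complex, peaks were then at 9 of 10 polymerase II genes, with rpb-6 the exception, at 1 of 7 polymerase I and III genes, at 4 of 11 Mediator genes and at 6 of 14 TFIID genes. For 6 of the 18 genes in the close class (33.3%, against 30.4% of all genes in it), the gene at the head of the same-strand run did have a promoter peak. These were wip-1 before mdt-11 (rank 142), algn-5 before rpac-40 (rank 476), Y57E12AL.6 before mdt-6 (rank 832), hach-1 before rpc-2 (rank 1210), prmt-1 before mdt-17 (rank 1596) and mlc-5 before taf-9 (rank 2114). A run here means genes on 1 strand with each ending within 1000 bp of the next start, and it was not checked against annotated operons.

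The whole gap before the start is printed for rpb-2, tbp-1, rpc-2 and taf-9, as examples from the 18 genes of the close class. Each is read 5′ to 3′ on the gene's strand from RefSeq WBcel235, and the capitals mark TTTCAG where it stands directly before the start, letters of the consensus 3′ splice acceptor that also receives spliced leaders. The gap before rpb-2 is III:4939454-4939566 (plus strand, after fsn-1), before tbp-1 III:7383906-7384032 (plus, after T20B12.3), before rpc-2 III:5557319-5557364 (plus, after hach-1) and before taf-9 III:13624171-13624275 (plus, after mlc-5).
rpb-2: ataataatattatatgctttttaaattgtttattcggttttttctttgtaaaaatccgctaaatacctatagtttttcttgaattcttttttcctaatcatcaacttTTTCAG
tbp-1: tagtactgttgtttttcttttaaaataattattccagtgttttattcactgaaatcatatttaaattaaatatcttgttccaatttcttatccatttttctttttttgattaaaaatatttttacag
rpc-2: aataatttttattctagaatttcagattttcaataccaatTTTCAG
taf-9: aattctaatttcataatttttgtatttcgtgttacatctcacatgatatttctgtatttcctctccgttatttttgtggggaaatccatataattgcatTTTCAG

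The gaps of rpb-2, tbp-1, rpc-2 and taf-9 had GC contents of 22.1%, 18.9%, 19.6% and 28.6%. Over all 18 gaps of the class GC content ran from 18.9% at tbp-1 to 41.3% at taf-6.1. TTTCAG stood directly before the annotated start of 5 of the 18 close members (27.8%, against 15.4% of all genes in that class) and of 9 of the other 42 (21.4%, against 11.9%). The 5 were rpb-2, rpc-2 and taf-9, printed above, and taf-6.1 and taf-13.

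The replicates ranked most of these peaks alike. Of the 21 member peaks, 19 (90.5%) overlapped an entry among the 3040 strongest of both replicates, against 78.7% of the 2312 genes' peaks, and the exceptions were rpb-4 and taf-8, both weaker in replicate 1. The higher of the replicate ranks was a median of 1.4 times the lower and at most 3.29 times. The replicate summits lay a median of 13 bp apart, at most 66 bp, which was at taf-6.2. When each replicate's own 3040 strongest entries replaced the thresholded list, replicate 2 alone gave the same 21 genes (11.3% of all genes) and replicate 1 alone gave 19 of them and mdt-1.2 and mdt-8 (11.5% of all genes). The replicates differed widely at these additions. The strongest entry in the window ranked 654 in replicate 1 and 9246 in replicate 2 at mdt-1.2. At mdt-8 it ranked 1467 in replicate 1, and replicate 2 had no entry. Both replicates placed such an entry in the window of 19 members (31.7%, against 9.22% of all genes). The thresholded list was derived from these same replicates, so this agreement is not independent of it.

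By chromosome, peaks were found at 5 of 11 members on I, 5 of 13 on II, 5 of 15 on III, 4 of 8 on IV, 2 of 9 on V and 0 of 4 on X. Over all genes of these chromosomes the shares were 16.3%, 10.7%, 18.8%, 11.1%, 7.53% and 8.75% in that order. The X-linked members, taf-3, taf-7.1, taf-11.1 and mdt-1.2, each had a pooled entry below the threshold. None of the 21 member summits lay within 500 bp of the start of a tRNA, snoRNA, snRNA or rRNA gene. The share over all promoter summits was not counted, so this is not read as a trait of the members. Members with a peak had a median length of 1078 bp against 2735 bp for those without, whereas over all genes the medians were 2437.5 bp with a peak and 1986 bp without. The member medians mix complexes that differ in gene length. TFIID genes with a peak ran from 797 bp (taf-10) to 7427 bp (taf-6.2), and polymerase II genes with one from 394 bp (rpb-10) to 10100 bp (ama-1).

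Genes of the same pathway under other names were counted from a list of 41, of which 40 matched a protein-coding gene. That list, too, was chosen with earlier results of these data known. Of the 40, 12 had a promoter peak (30.0%, against 11.6% of all genes). Among Mediator genes with other names 3 of 8 did: sop-3 (rank 614), the cyclin C gene cic-1 (rank 834) and sur-2 (rank 1587). The gene for the kinase that partners cyclin C, cdk-8, had an entry of rank 8628, and dpy-22 and let-49 had none. Among general transcription factors 4 of 18 did, including the TFIIH kinase gene cdk-7 (rank 175, summit 17 bp upstream), its assembly factor gene mnat-1 (rank 2431) and the TFIIB gene ttb-1 (rank 2268), while the cyclin H gene cyh-1 had no entry. The remaining gene with a peak on that list was pqn-51 (rank 395). Among elongation factors 5 of 14 did: pafo-1 (rank 500), the kinase gene cdk-9 (rank 625), rtfo-1 (rank 1833), and cdk-12 (rank 2263) and its cyclin gene ccnk-1 (rank 2068). The Paf1 complex gene cdc-73 had an entry of rank 3056, just below the threshold, and spt-5 and emb-5 had none.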

How the data were processed

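LIN-13 ChIP-seq peak lists on ce11 were used. Per the deposited file listings, lists for replicate 1, replicate 2 and the pooled replicates were made as input for the irreproducible discovery rate step, and the authors' thresholded list was derived from those 3. The sources used here name no caller, aligner or threshold. The deposited signal, on an unstated scale, served only for ranks within a list. The deposited −log10 q value was 2.99 at all 21 member peaks and was not used. The ce10 copies were not used, and a control experiment named in the labels is not analysed here. No entry on ce11 ran past a WBcel235 chromosome end (Ensembl release 115 gene models, RefSeq sequence).

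A summit counted for every gene whose window held it. Replicate ranks are of the strongest entry overlapping the pooled entry by at least 1 bp. The members and lists were chosen with earlier results of these data known. No set test was made. The text names every member, with its pooled rank where it had an entry. One pathway name, pqn-38, matched no gene. Counting was tested on simulated data over 19973 genes: 200 of 200 planted summits were recovered with 0 false calls. This checked the counting step only and says nothing about the peak calls or which gene a summit serves. Alternatives were other windows, lists, starts and overlap rules. The 2 added words, the 200 bp class and the motif windows of 50 and 100 bp were chosen after seeing the data. Calculations used Python 3.11.15, numpy 2.4.6 and matplotlib 3.10.9.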

Additional observations from a re-analysis of the deposited data

How the results depend on the processing

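The count of 21 genes with a thresholded promoter peak became 13 in the stronger 1520 peaks (6.97% of all genes) and 37 with any pooled entry (36.3%). It was 21 and 21 with either replicate left out. It was 17 with the narrow window (9.30%), 26 with the wide window (14.9%), 21 when the interval had only to overlap the window (12.3%), and 14 with each summit given only to the nearest start (8.36%). With the narrow window Mediator had 3 genes with a peak, and with the wide window polymerases I and III had 2. The median summit position of -143 bp moved to -248.5 bp in the widest window, which by definition also admits summits up to 2000 bp upstream and added 5 genes. With a replicate left out it lay between -161 and -141 bp, and the cause of that difference was not tested. A peak was at 6 of 29 members with a same-strand neighbour within 1000 bp (20.7%, against 8.51% of all genes of that layout) and at 1 of 18 with one within 200 bp (5.56%, against 6.58%). TTTGAA was at 8 member peaks within 75 bp (31.8% of all thresholded promoter summits) and at 4 within 50 bp. For TTTGAA within 50 bp the share over all summits was not counted, so the lower count is not read as a trait of the members. TTGCG was at 15 within 75 bp, 12 within 50 bp (34.6% of all thresholded promoter summits) and 15 within 100 bp (47.4%). No paired analysis was possible because there is 1 group. The depth is unknown, and ranks carry no error beyond the difference between the replicates.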
